A study of Homo sapiens with 2 samples.

Results

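Collagens and laminins are the protein chains from which cells build basement membranes and connective tissue fibrils. They were taken as every protein-coding gene of the tables with a symbol of the form COL, number, A, number, or LAMA, LAMB or LAMC with a number. The rule finds 56 of 40392 genes, each with a row in both tables, and 55 of them, 44 collagen and 11 laminin chains, are described here. RNA sequencing of total RNA depleted of ribosomal RNA was done on KYSE30, an established line of esophageal squamous cell carcinoma, in 2 libraries. The RHCG library came from stable transfectants of a vector for human RHCG, an ammonia transporter of the Rhesus glycoprotein family. The mock library came from stable transfectants of the pIRES2-EGFP vector. The labels do not say whether a transfectant was 1 clone or a pool, nor what promoter drove RHCG. Each group is a single library, so no replicate spread and no test between groups can be had, and every difference below is one between these 2 libraries.

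A basement membrane is a thin sheet under an epithelium in which a network of laminin trimers, each of an alpha, a beta and a gamma chain, and a network of collagen IV trimers are joined to each other. Squamous epithelium holds to this sheet through hemidesmosomes, where a laminin with LAMA3 and LAMB3 chains, the transmembrane collagen COL17A1 and integrin alpha 6 beta 4 meet. Fibrillar collagens form the banded fibrils of connective tissue and are mainly made by fibroblasts, and the other collagens decorate fibrils, anchor them or span cell membranes.

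Values are in RPKM (reads per kilobase of transcript, scaled to depth), a scale on which genes can be compared. The gene length behind each value is not given, so ratios of level between genes are approximate. The depth behind the values corresponded to about 22100000 reads in the RHCG library and about 18900000 in the mock library. RHCG itself was at 413 RPKM in the RHCG library and listed at 0 in the mock library. The files do not tell whether a 0 stands for a level of at most 1 RPKM, for no reads or for a gene left uncounted. Of 16 squamous epithelial markers, 14 were listed in at least 1 library, with a summed level of 663 RPKM in the RHCG library and 990 RPKM in the mock library, and KRT5 and PKP1 were at 0 in both. That list also holds the general epithelial genes EPCAM, at 120 and 66.5 RPKM in the RHCG and mock libraries, and CDH1, at 84.7 and 76.5 RPKM. Of 12 fibroblast markers, MFAP5 was listed, at 1.30 RPKM in the RHCG library and 1.34 in the mock library, and the other 11 (DCN, LUM and PDGFRA among them) were at 0 in both. Of 10 endothelial markers, EGFL7 was listed, at 17.2 RPKM in the RHCG library and 16.7 in the mock library, and PECAM1, CDH5 and VWF were at 0.

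The collagen and laminin mRNA described here came mainly from basement membrane chains and COL17A1. The summed level of the chains was close in both libraries, 897 RPKM in the RHCG library and 913 RPKM in the mock library. Within that sum, the collagen IV chains COL4A1 and COL4A2 were higher in the RHCG library, at 2.80-fold and 2.89-fold the mock level. By the rule given next no other chain described here was called higher and none lower. LAMA3 and COL28A1 came nearest among the chains listed in both libraries, with log2 ratios of −0.80 and −0.95. The ratio is log2((RHCG + 1)/(mock + 1)) in RPKM, called higher at 1 or more and lower at −1 or less, for genes listed above 0 in at least 1 library. Over all 12857 such genes, 2.74% were called higher and 3.30% lower by this rule, beside 2 and 0 of the 22 chains that could be tested. In RNA from a whole culture, fewer cells that make a chain and less of its RNA per cell cannot be told apart.

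**Figure D1:**
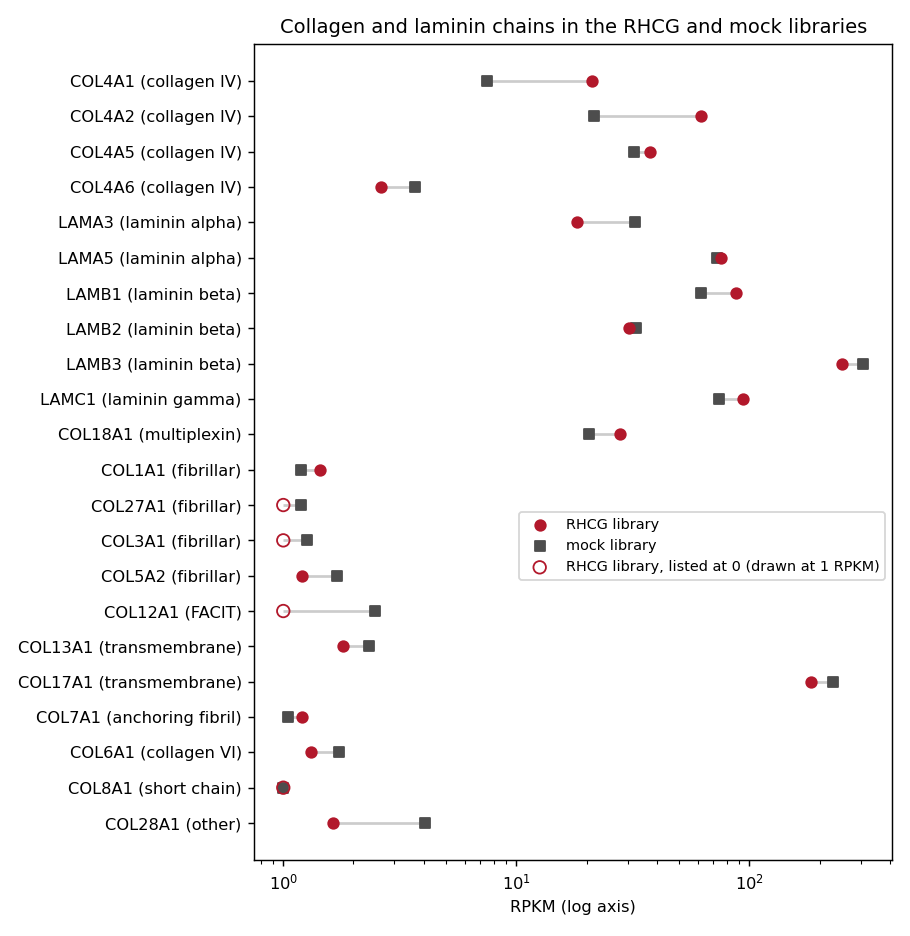
Level of each of the 22 collagen and laminin chains listed in at least 1 library, on a log axis in RPKM, with the RHCG library as circles and the mock library as squares. The widest gaps with RHCG to the right are COL4A1 (21.1 and 7.52 RPKM) and COL4A2 (62.2 and 21.5 RPKM), and open circles, drawn at 1 RPKM, mark chains listed at 0 in the RHCG library.

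Of the 55 chains, 18 were listed in both libraries, 0 in the RHCG library alone, 4 in the mock library alone and 33 in neither. Among all genes, 363 were listed in the RHCG library alone and 628 in the mock library alone. The 4 chains listed in mock alone (COL12A1, COL3A1, COL27A1 and COL8A1) entered through that library and could not lie above 0. Of the 18 chains listed in both, 9 lay above 0 and 9 below, with a median log2 ratio of −0.02, beside 0.01 over the 11866 genes listed in both. Within 1.5-fold lay 14 of these 18 chains (77.8%), near the 76.9% of all genes listed in both.

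Collagen IV forms the covalent network of every basement membrane. Its most widespread trimer joins 2 COL4A1 chains to 1 COL4A2 chain. COL4A2 (Entrez gene 1284) was at 62.2 RPKM in the RHCG library and 21.5 RPKM in the mock library, a log2 ratio of 1.49. These levels rest on approximately 17807 and 5283 reads, and the 2.89-fold difference had an approximate 95% exact (Clopper-Pearson) interval of 2.81 to 2.98. COL4A1 (Entrez gene 1282) was at 21.1 RPKM in the RHCG library and 7.52 RPKM in the mock library, a log2 ratio of 1.37 and a fold of 2.80 (interval 2.62 to 3.0). Such intervals cover counting error only, and differences between cultures or preparations are not part of them. They use the length of all annotated exons of a gene, while the length behind the deposited values is not given. A shorter length would give fewer reads and wider intervals. Both chains moved by nearly the same factor, so COL4A2 had 2.95 times the level of COL4A1 in the RHCG library and 2.86 times in the mock library. Among protein-coding genes listed in a library, COL4A2 stood at percentile 90.3 in the RHCG library and 70.8 in the mock library.

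The other collagen IV chains did not follow this pair. COL4A5, the chain whose loss causes X-linked Alport syndrome, was at 37.4 RPKM in the RHCG library and 32.0 RPKM in the mock library (log2 ratio 0.22). COL4A6, its partner in the basement membranes of skin and smooth muscle, was at 2.62 RPKM in the RHCG library and 3.66 RPKM in the mock library (−0.37). COL4A2 had 1.66 times the level of COL4A5 in the RHCG library and 0.671 times in the mock library, so the order of the 2 chains was reversed. COL4A3 and COL4A4, chains of the kidney and lung basement membrane, were at 0 in both libraries.

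The collagen IV genes lie in head-to-head pairs, which share the stretch of DNA between their starts. In RefSeq (GRCh38.p14) 126 bases lie between the starts of COL4A1 and COL4A2, 418 between those of COL4A4 and COL4A3, and 379 or 1415 between those of COL4A6, which has 2 annotated starts, and COL4A5. The shortest stretch is shown because the members of this pair alone were called, and in the same direction. It is chr13:110307158-110307283, read on the plus strand towards COL4A2, with the motif matches in capitals:
COL4A1-COL4A2 gap: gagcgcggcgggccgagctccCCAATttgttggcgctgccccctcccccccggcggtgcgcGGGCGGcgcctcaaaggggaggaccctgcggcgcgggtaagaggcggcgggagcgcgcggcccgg
It has a GC content of 80.2% and holds 1 CCAAT box (CCAAT) and 1 GC box (GGGCGG), both on the plus strand, and no TATA box (TATAAA), AP-1 site (TGANTCA) or E-box (CACGTG) on either strand. Of all 35116 promoter windows of 300 bases in the RefSeq table, 34.6% hold a CCAAT box and 45.0% a GC box on either strand.

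COL4A1 and COL4A2 lie on chromosome 13, whose genes as a whole had ratios above 0. Of 137 protein-coding genes there whose mean reached 3 RPKM, 21 (15.3%) were higher and 0 lower, beside 3.0% higher among 9253 such genes of all chromosomes. The median log2 ratio of the chromosome was 0.57, and 0.02 over all 9253. COL4A2 and COL4A1 ranked 4 and 5 among the 137, and the middle of the chromosome's genes (the 25th to the 75th percentile) spanned 0.33 to 0.85. The median of the genes around each of them, a window of 51 with the gene itself left out, was also removed. COL4A2 was then at 0.91 and COL4A1 at 0.80, and neither passed 2-fold. A shift shared by the chromosome and a shift of the pair itself cannot be told apart in a ratio of 2 libraries.

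The nearest genes were closer to 0 than the pair. Of the 10 nearest such genes, 5 on each side, 8 lay above 0 and 0 were called higher, with a median of 0.29. On the COL4A1 side, IRS2, an insulin receptor substrate, was at 9.64 RPKM in the RHCG library and 6.55 in the mock library (0.49), followed by ARGLU1 (0.26), EFNB2 (−0.09), ERCC5 (0.26) and TPP2 (0.50). Just beyond TPP2, and outside these 10, lies ITGBL1, whose ratio of 3.45 was the highest of the 137 genes. On the COL4A2 side, RAB20, a small GTPase, was at 15.1 RPKM in the RHCG library and 7.92 in the mock library (0.85). NAXD, a metabolite repair enzyme, was at 26.5 and 12.9 RPKM in the RHCG and mock libraries (0.98), followed by CARS2 (0.33), ING1 (0.13) and ANKRD10 (−0.01).

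**Figure D2:**
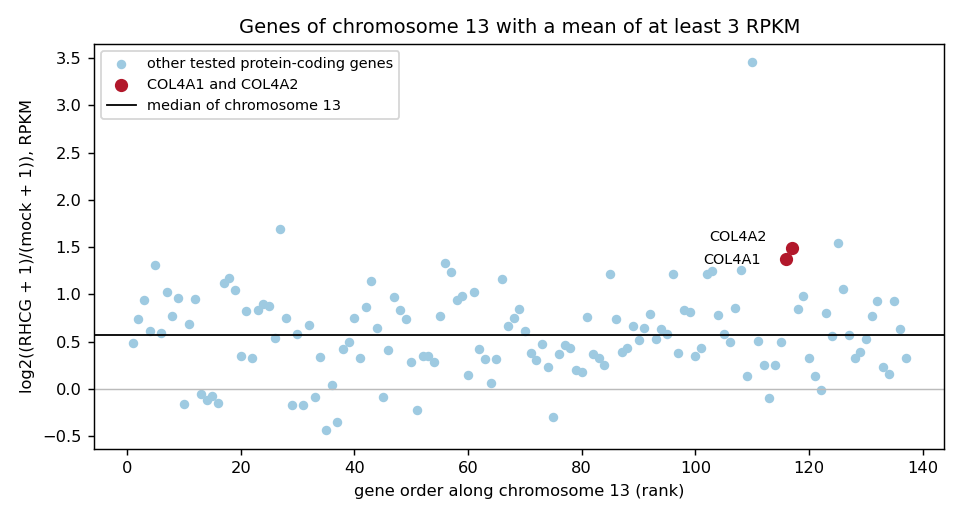
Log2 ratio of RHCG over mock for the 137 protein-coding genes of chromosome 13 with a mean of at least 3 RPKM, in gene order, with COL4A1 and COL4A2 in red and the median of the chromosome as a black line. Above 0 lie 122 of the points and the median is 0.57, and COL4A1 (1.37) and COL4A2 (1.49) lie above their 10 nearest genes. ITGBL1 (3.45), the next gene beyond those 10 on the COL4A1 side, is the highest point.

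The laminins described made up most of the mRNA of the chains described, 61.5% of the summed level of tested chains in the RHCG library and 63.8% in the mock library. None of these laminins passed 2-fold. Of 11 laminin chains 6 were listed in both libraries, 3 above 0 and 3 below, with a median log2 ratio of −0.02. LAMA1, LAMA2, LAMA4, LAMB4 and LAMC3 were at 0 in both. The listed chains are those that epithelial laminins use.

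The beta and alpha chains of the hemidesmosome laminin differed widely in level. LAMB3, the beta chain and the most abundant chain described, was at 249 RPKM in the RHCG library and 308 RPKM in the mock library (log2 ratio −0.31). LAMA3, the alpha chain, had the lowest ratio of any laminin described, with 18.1 RPKM in the RHCG library and 32.4 RPKM in the mock library (−0.80). Its level in RHCG was 0.560-fold that in mock, with an approximate exact interval of 0.539 to 0.581 from about 4414 and 6771 reads. LAMB3 had 13.7 times the level of LAMA3 in the RHCG library and 9.52 times in the mock library, so the gap between the 2 levels was wider in the RHCG library.

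The chains of the general epithelial laminins lay at or above 0 with 1 exception. LAMB1, a beta chain, was at 87.4 RPKM in the RHCG library and 62.1 RPKM in the mock library, a log2 ratio of 0.49 and a fold of 1.41 (interval 1.37 to 1.45). LAMC1, the gamma chain shared by most laminins, was at 93.8 RPKM in the RHCG library and 74.4 RPKM in the mock library (0.33). LAMA5, the alpha chain that joins them in mature epithelia, was at 75.4 RPKM in the RHCG library and 72.4 RPKM in the mock library (0.06). LAMB2, which can take the place of LAMB1, was at 30.3 RPKM in the RHCG library and 32.7 RPKM in the mock library (−0.10). LAMB1 thus had 2.88 times the level of LAMB2 in the RHCG library and 1.90 times in the mock library, while LAMC1 and LAMB1 stayed close to each other, at a ratio of 1.07 in the RHCG library and 1.20 in the mock library.

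Neighbouring genes moved with some of these chains and not with others. The genes around LAMB1 on chromosome 7 had a median of 0.50, as large as its own ratio, so that −0.01 was left. Those around LAMA3 on chromosome 18 had a median of 0.41, opposite to LAMA3, and with it removed LAMA3 was at −1.22, past 2-fold. Those around LAMC1 on chromosome 1 had a median of 0.11. Over the 22 tested chains the median of surrounding genes ranged from −0.17 to 0.71, and of the 12 chains whose mean reached 3 RPKM, 7 had a ratio of the same sign as their surroundings. The part that these shared shifts play in the ratio of a single chain was not tested.

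COL18A1 and COL17A1 were the other abundant chains. COL18A1, the multiplexin of basement membranes whose end is released as endostatin, was at 27.9 RPKM in the RHCG library and 20.6 RPKM in the mock library (log2 ratio 0.42). Its gene overlaps SLC19A1, which was at 19.7 RPKM in the RHCG library and 23.0 in the mock library, and reads of the overlap could be counted for either. COL15A1, the other multiplexin, was at 0 in both. COL17A1, the hemidesmosome collagen, was at 183 RPKM in the RHCG library and 228 RPKM in the mock library (−0.31). Among the chains described it was the second most abundant of the RHCG library, after LAMB3. COL7A1, the anchoring fibril collagen that ties this zone to the dermis or its counterpart, was near the lowest value listed in the tables, at 1.20 RPKM in the RHCG library and 1.05 RPKM in the mock library (0.10).

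LAMA3, LAMB3 and COL17A1 meet in the hemidesmosome and all had ratios below 0. The integrin chains that meet them there lay above 0. ITGA6 was at 127 RPKM in the RHCG library and 83.3 in the mock library (0.60), and ITGB4 had a ratio of 0.38. With the median of neighbouring genes removed, ITGA6 was at −0.13, below 0, and ITGB4 at 0.44. By the same step LAMA3 was at −1.22, LAMB3 at −0.39 and COL17A1 at −0.23. LAMB3 and COL17A1, both at −0.31, lay within 1.5-fold, as did 77.2% of all genes tested. The 150 bases before the starts of LAMA3, LAMB3 and COL17A1 are shown to compare their motifs. Capitals mark matches of the same 5 motifs on either strand, and each sequence runs 5′ to 3′ on the strand of its gene. LAMA3 is chr18:23872870-23873019 on the plus strand, LAMB3 is chr1:209651375-209651524 on the minus strand, and COL17A1 is chr10:104085881-104086030 on the minus strand (RefSeq, GRCh38.p14). LAMB3 has 3 annotated starts, and the one with an AP-1 match is shown, a choice made after the matches were seen.
LAMA3: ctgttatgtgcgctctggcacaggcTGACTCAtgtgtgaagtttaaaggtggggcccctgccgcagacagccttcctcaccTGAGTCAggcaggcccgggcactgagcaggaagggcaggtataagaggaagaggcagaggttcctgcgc
LAMB3: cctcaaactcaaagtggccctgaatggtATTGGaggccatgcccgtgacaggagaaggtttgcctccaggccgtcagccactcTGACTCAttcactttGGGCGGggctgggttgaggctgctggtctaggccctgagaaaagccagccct
COL17A1: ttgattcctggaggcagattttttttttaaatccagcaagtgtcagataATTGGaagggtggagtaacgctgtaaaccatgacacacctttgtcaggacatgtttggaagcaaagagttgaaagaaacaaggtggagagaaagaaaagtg
LAMA3 holds 2 AP-1 matches, beginning 125 and 69 bases before its start, and LAMB3 holds 1, beginning 67 bases before its start. COL17A1 holds a CCAAT box on the reverse strand, as does LAMB3, and no AP-1 match in these bases. An AP-1 match stands in 7.71% of all promoter windows, and in 2 of the 21 windows found for tested chains. A GC box stands in 16 of those 21 windows and in 16 of the 34 windows of chains at 0 in both libraries. The median GC content was 62.3% for windows of tested chains, 61.8% for windows of chains at 0 and 58.7% over all windows.

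The fibrillar collagens and, apart from COL17A1, the remaining collagens were at 4.08 RPKM or less in both libraries. Of 11 fibrillar chains, COL1A1, the main chain of bone and skin fibrils, was at 1.44 RPKM in the RHCG library and 1.19 in the mock library. COL5A2, which helps to start such fibrils, was at 1.20 RPKM in the RHCG library and 1.70 in the mock library (log2 ratio −0.29). COL3A1 and COL27A1 were listed at 0 in the RHCG library and at 1.26 and 1.19 RPKM in the mock library. The other 7, COL1A2 and COL2A1 among them, were at 0 in both. Fibroblast markers were likewise at 0 apart from MFAP5, whose levels are given above.

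Of 25 other chains, 5 were listed in both libraries. Besides COL17A1 and COL7A1 these were COL28A1, a collagen known from mouse peripheral nerve, at 1.63 RPKM in the RHCG library and 4.08 in the mock library; COL13A1, a transmembrane collagen of cell adhesions, at 1.80 and 2.32 RPKM in the RHCG and mock libraries; and COL6A1, a chain of beaded microfibrils, at 1.31 and 1.74 RPKM. COL28A1 had a plain fold of 0.400 (interval 0.329 to 0.487 from about 154 and 330 reads), which is past 2-fold, but with 1 RPKM added to each value its log2 ratio was −0.95. COL12A1, a collagen on the surface of fibrils, was listed at 0 in the RHCG library and at 2.49 RPKM in the mock library, and COL8A1, a short chain of endothelial and corneal membranes, at 0 and 1.00 RPKM. The other 9 chains that ride on fibrils, 4 collagen VI chains, COL10A1, COL8A2, COL23A1, COL25A1 and COL26A1 were at 0 in both.

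The classes differed in level far more than in ratio. Basement membrane chains (collagen IV, laminins and multiplexins) made up 78.2% of the summed level in the RHCG library and 73.1% in the mock library. Fibrillar chains made up 0.515% and 0.584%, and other chains, nearly all of it COL17A1, 21.2% and 26.3%, in the RHCG and mock libraries. In these shares a tested chain listed at 0 counts as 1 RPKM; with such chains at 0 RPKM, fibrillar chains made up 0.295% in the RHCG library and 0.584% in the mock library. Within the first class, collagen IV made up 13.7% of the chain sum in the RHCG library and 7.09% in the mock library. The median log2 ratio was 0.22 over 11 basement membrane chains, all listed in both libraries, with 2 higher and 0 lower. It was −0.15 over 4 fibrillar chains (−0.07 over the 2 listed in both) and −0.25 over 7 other chains, with 0 called in either direction. The fibrillar median was −0.71 with chains listed at 0 set to 0 RPKM and −0.59 with the median of neighbouring genes removed. Over all genes tested it was −0.01. The difference between the classes was not tested.

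**Figure D3:**
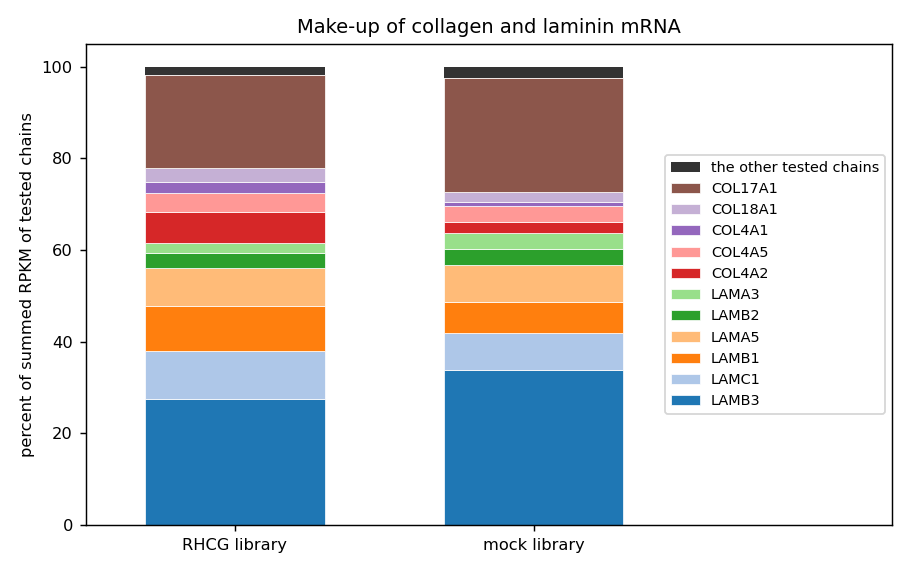
Share of each chain in the summed RPKM of the 22 tested chains, as stacked bars in percent, for the RHCG and the mock library. Collagen IV chains take 13.7% in the RHCG library and 7.09% in the mock library, and LAMB3 takes 27.6% in the RHCG library and 33.8% in the mock library.

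**Figure D4:**
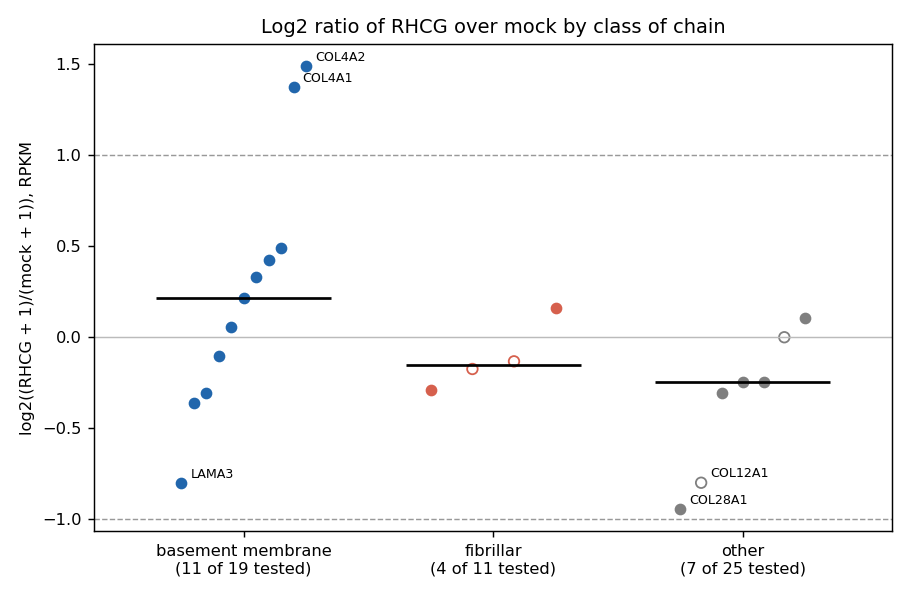
Log2 ratio of RHCG over mock of each tested chain by class, with the class median as a bar, dashed lines at 2-fold and open circles for chains listed in the mock library alone. COL4A1 and COL4A2 are the points above 1, and COL28A1 (−0.95) and LAMA3 (−0.80) are lowest among chains listed in both libraries.

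Other genes of matrix assembly stayed mostly within 2-fold, as did most genes. Over all genes tested, 2.74% were called higher and 3.30% lower. Of 21 other basement membrane proteins, 10 were tested, with 0 past 2-fold in either direction and a median log2 ratio of 0.10. The most abundant by the mean of both libraries were AGRN, the heparan sulfate proteoglycan agrin, at 272 RPKM in the RHCG library and 244 in the mock library, and TINAGL1, a matricellular protein, at 215 and 228 RPKM in the RHCG and mock libraries. Of 22 genes for collagen modification and folding, 20 were tested, with 0 called higher and 1 lower. The lower gene was P4HA2, a prolyl 4-hydroxylase subunit, at 16.7 RPKM in the RHCG library and 42.3 RPKM in the mock library (log2 ratio −1.29), and just inside 2-fold, at −0.997, with the median of its neighbouring genes removed. PLOD2, a lysyl hydroxylase, was at 3.73 RPKM in the RHCG library and 7.84 RPKM in the mock library, a plain fold of 0.475 that is past 2-fold, but with 1 RPKM added to each value its log2 ratio was −0.90 and it was not called. The list's median was 0.06. Of 15 genes for procollagen processing and crosslinking, 8 were tested and 0 called, with a median of 0.06. The most abundant by that mean were LOXL2, a lysyl oxidase that crosslinks collagen IV, at 13.9 RPKM in the RHCG library and 16.0 in the mock library, and BMP1, a procollagen C-proteinase, at 9.69 and 16.5 RPKM in the RHCG and mock libraries.

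Receptors for these chains stayed within 2-fold, as did most genes, with 2.74% of all genes tested called higher and 3.30% lower. Of 21 collagen and laminin receptors, 12 were tested, 8 above 0 and 4 below, with 0 called and a median of 0.35. The most abundant by the mean of both libraries were ITGB4, the hemidesmosome integrin beta chain, at 1009 RPKM in the RHCG library and 778 in the mock library, and ITGA3, an alpha chain that binds laminins, at 373 and 239 RPKM in the RHCG and mock libraries. In the mock library CD151, a tetraspanin that binds laminin-binding integrins (279 RPKM), and SDC1, the proteoglycan syndecan-1 (258 RPKM), lay above ITGA3. With the median of neighbouring genes removed, the log2 ratio of ITGA6 went from 0.60 to −0.13 and that of ITGAV from 0.66 to −0.03. ITGA2 fell from 0.32 to 0.03, ITGB1 from 0.53 to 0.45, BCAM from 0.50 to 0.45 and SDC4 from 0.21 to 0.15. SDC1 fell from −0.08 to −0.36. Others rose by the same step, ITGB4 from 0.38 to 0.44, ITGA3 from 0.64 to 0.75 and CD151 from −0.25 to 0.40. So did DDR1, from −0.48 to −0.43, and DAG1, from −0.25 to −0.10. Of 14 tested squamous epithelial markers, 0 passed 2-fold upward and 3 downward, and their median was −0.26. The 3 were KRT6A, a keratin of activated epithelium (−3.14), KRT13, a keratin of upper layers (−1.31), and SOX2, a transcription factor of basal cells (−1.18). Their part in the ratios of the hemidesmosome chains was not tested.

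**Figure D5:**
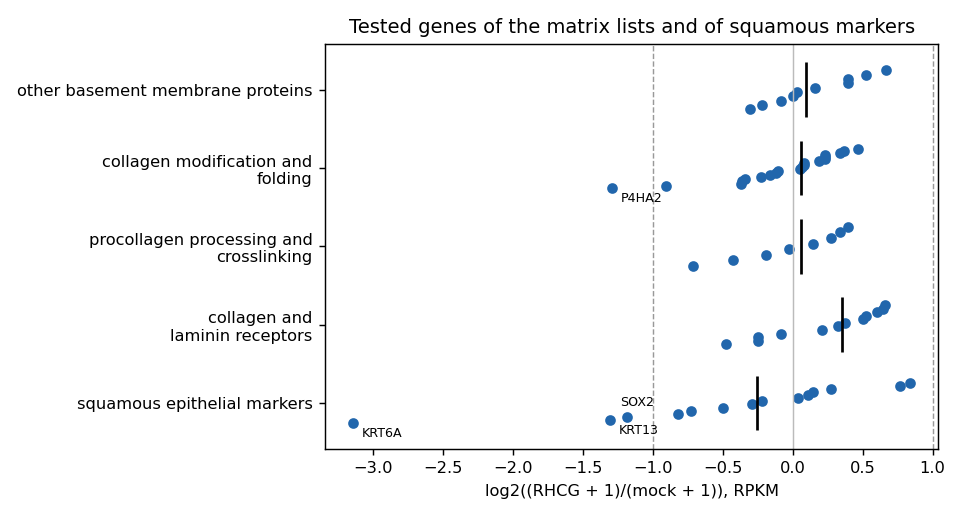
Log2 ratio of RHCG over mock of each tested gene in the 4 matrix lists and the squamous marker list, with list medians as bars and dashed lines at 2-fold. P4HA2 (−1.29) is the one gene of the matrix lists past the dashed lines, on this scale with 1 RPKM added to each value. The receptor median, 0.35, is the highest of the 5, with no median of neighbouring genes removed.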

How the data were processed

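Total RNA was depleted of ribosomal RNA and made into barcoded Ion Total RNA-Seq libraries, per the labels' protocols, with 1 RHCG and 1 mock library. The submitters' processing notes name hg19 and bedtools 2.25.0; neither aligner nor counter is given in the sources used here. Each table deposited by the authors is headed RPKM, but its values were log2 RPKM with no pseudocount and none below 0. The 40448 rows were unlogged and 112 rows with a copy suffix summed, giving 40392 Entrez genes, of which 38047 matched a RefSeq symbol. Values listed at 0 were set to 1 RPKM in ratios and in shares of tested chains (to 0 in the summed levels), with a pseudocount of 1 RPKM, so ratios understate the change of low genes. Genes listed at 0 in both tables were not tested. Changes are called at 2-fold with no test.

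Approximate reads are RPKM times GENCODE 29 exonic length times the depth at which unlogged values times length of small RNA genes fall on whole multiples; 37.0% of these in the RHCG and 24.2% in the mock library lay within 0.002 reads of a whole number, so no count test was run. RefSeq (GRCh38) gave gene order for neighbour medians (a window of 51 protein-coding genes whose mean reached 3 RPKM, the gene itself left out), and promoter sequences for 17 tested chains and 24 at 0 in both.

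The chains, classes, gene lists and motifs were chosen with earlier results of these data known. 1 chain that the rule finds is not reported here and stands in no sum, share or count of chains. All other tested chains, called genes of each list, or else its 2 most abundant, are named. PLOD2, ITGA6, ITGAV, EPCAM, CDH1, CD151, SDC1, ITGA2, ITGB1, BCAM, SDC4, DDR1, DAG1 and ITGBL1 were added after their values were seen. The protein comparison that was planned was not run, and protein sequences are not used here. Scripts ran in Python 3.11.15 with scipy 1.17.1 for intervals, statsmodels 0.14.6 for trends, pandas 2.3.3 and numpy 2.4.6 for tables, and matplotlib 3.10.9.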

Additional observations from a re-analysis of the deposited data

How the results depend on the processing

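No paired analysis was possible because each group is a single library, which also leaves none to drop. The 2 higher chains became 0 with the median of neighbouring genes (a window of 51) removed, where COL4A1 was at 0.80 and COL4A2 at 0.91. With a window of 25 or a wider one COL4A2 was at 0.96. The 0 lower chains became 2 with a pseudocount of 0.1 RPKM (COL12A1 and COL28A1), 4 with genes listed at 0 set to 0 RPKM (the 4 listed in mock alone), 3 at 1.5-fold and 2 with neighbours removed (LAMA3 and COL5A2). With no filter the median of each class was 0.00. That of basement membrane chains, 0.22, was 0.27 for genes whose mean reached 5 RPKM, 0.16 with the GC and length trend removed and 0.15 with neighbours removed. That of fibrillar chains, −0.15, was −0.71 with genes at 0 set to 0 RPKM and −0.59 with neighbours removed, and had no value where a mean of 5 RPKM was asked. With genes at 0 set to 0 RPKM, basement membrane chains made up 78.6% and fibrillar chains 0.295% of the RHCG sum. The 1 lower modification gene became 2 with a pseudocount of 0.1 RPKM, with the GC and length trend removed and at 1.5-fold, and 0 with neighbours removed. With genes at 0 set to 0 RPKM, higher genes were 1 among other basement membrane proteins, 2 in modification and 1 in processing, and lower genes 1 in the first and 1 in the last. At 1.5-fold, higher genes were 1 among other basement membrane proteins, 3 receptors and 2 squamous markers, and lower genes 1 in processing and 5 squamous markers. With genes at 0 set to 0 RPKM, a gene listed in 1 library alone always passes 2-fold, because every listed value lies above 1 RPKM. The calls that this setting adds are therefore fixed by the listing alone. The cause of the other changes was not tested, apart from the looser rules. Over all genes, a pseudocount of 0.1 RPKM gave 533 higher and 673 lower in place of 352 and 424, and genes at 0 set to 0 RPKM gave 686 and 1004. With neighbours removed, 251 were higher and 395 lower over all genes. Beside the counts at 1.5-fold, 77.2% of all genes tested lay within 1.5-fold. Apart from those medians, the other values of counts, medians and shares moved by no more than 1.5 times or their approximate counting error, as did 161 of 187 ratios of single chains, and no called ratio turned its sign. Called ratios were those of COL4A1 and COL4A2 alone. With neighbours removed, the uncalled ratios of LAMB1 (0.49 to −0.01) and LAMB2 (−0.10 to 0.04) did change sign. For chains near 1 RPKM the lowest listed value and the pseudocount limit what a ratio can show.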
